A study of Mus musculus with 6 samples.

Results

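The 10 genes described here encode the mucus and secreted products of intestinal goblet cells, together with a pair of proteins of the endoplasmic reticulum that serve mucin production. They are Muc2, Fcgbp, Clca1, Zg16, Tff3, Spink4, Retnlb, Agr2, Ern2 and Klk1. All 10 were measured, by 17 of the 45101 probe sets on the array, among 18193 genes that had a probe set with a single gene symbol. Where a gene had several probe sets, the brightest on average over the 6 arrays stands for it. The RNA came from small intestinal stem cells sorted for high GFP from Lgr5-EGFP-IRES-creERT2 mice, in which the Lgr5 gene, a marker of crypt base stem cells, drives EGFP and a tamoxifen-inducible Cre recombinase. All 6 mice carried this allele, and the labels used here name no other allele and no age. The 3 control mice had received vehicle (DMSO) and the other 3 had received DBZ, a gamma-secretase inhibitor (GSI), for 24 h. The titles set the groups and call the samples biological replicates, while the description field names DMSO for every sample. The study asked which expression changes follow inhibition of NOTCH1 in the mouse intestine.

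Goblet cells arise from crypt progenitors in which Notch signalling is low, so that the transcription factor Atoh1 is not repressed. They pack the mucin Muc2 into granules and release it as the gel that covers the epithelium, together with lectins, trefoil peptides and other small proteins. Muc2 is a very large, disulfide-rich protein, and its folding calls on dedicated proteins of the endoplasmic reticulum. Gamma-secretase releases the active part of Notch receptors, and its inhibition is known to turn crypt cells towards secretory fates.

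Agr2, Ern2 and Fcgbp rose with DBZ, by log2 differences of 1.46, 1.49 and 0.61, and 7 of the 10 genes did not pass the test. All 10 differences were positive, whereas 45.4% of all genes had a positive difference. The test was limma on log2(intensity + 16), and a gene passed where its p, adjusted by Benjamini and Hochberg's method for all 18193 genes, was under 0.05. It called 3.82% of all genes higher, 1.52% lower and 5.34% in either direction. Before adjustment 7 of the 10 genes had a p under 0.05 (limma), as did 26.3% of all genes. The median difference was 0.51 over the 10 genes and -0.02 over all genes. For 6 of the 10 genes, Fcgbp, Clca1, Tff3, Spink4, Agr2 and Ern2, every DBZ array lay above every vehicle array, as did 17.3% of all genes.

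**Figure D1:**
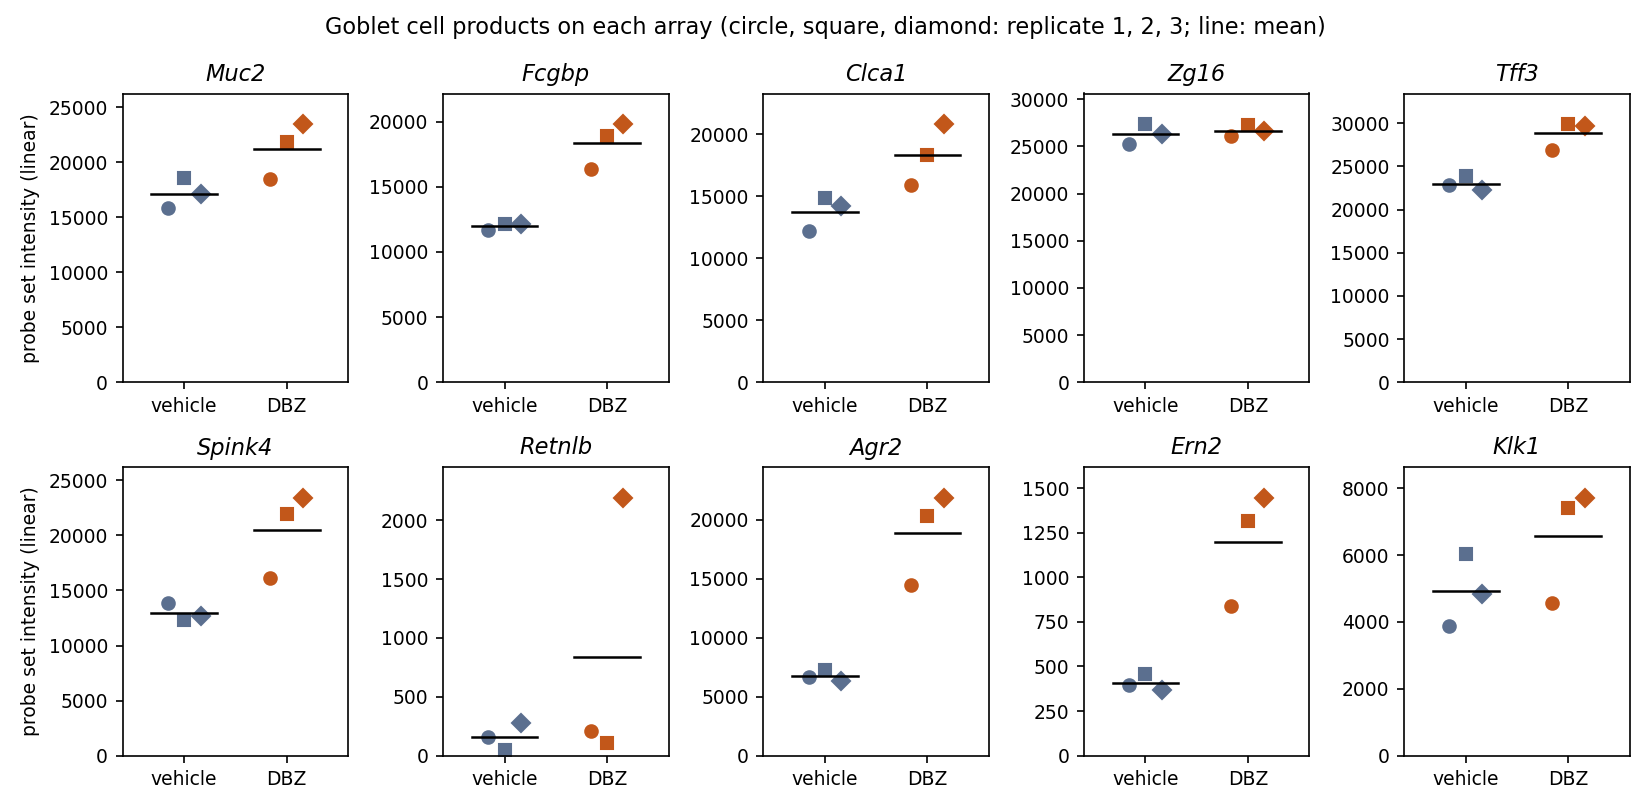
Deposited probe set intensity (linear scale, from 0) of the 10 goblet products on the 3 vehicle and 3 DBZ arrays. Circles, squares and diamonds are replicates 1, 2 and 3, and lines are group means. Agr2, Ern2 and Fcgbp show separate groups, Zg16 lies at about the same height in both, and the Retnlb mean of the DBZ group is set by replicate 3 at 2190.

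Promoter sequence was at hand for 4 of the 10 genes, in RefSeq annotation of build GRCm38.p6, and is shown for genes that passed the test, Agr2 and Fcgbp, beside others that did not, Muc2 and Klk1. Each line gives the 250 bases before the annotated start, 5′ to 3′ on the plus strand, from which all 4 genes are read. Capitals mark every match to the motifs searched. These were 3 forms of the E-box, the site of basic helix-loop-helix factors such as Atoh1, written CAGCTG for the first form, CAGATG for the next and CATATG for the last. The others were the forkhead motif TGTTTNC, the Cdx motif TTTATNG, the unfolded protein response core TGACGTG and the endoplasmic reticulum stress element. All were searched on both strands, and TATAAA on the coding strand alone.
Agr2, chr12:35992675-35992924: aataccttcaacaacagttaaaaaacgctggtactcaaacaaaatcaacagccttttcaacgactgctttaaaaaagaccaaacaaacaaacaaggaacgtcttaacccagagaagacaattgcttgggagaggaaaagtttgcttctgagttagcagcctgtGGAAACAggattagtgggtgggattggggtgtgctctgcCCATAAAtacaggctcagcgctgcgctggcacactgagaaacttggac
Fcgbp, chr7:28070986-28071235: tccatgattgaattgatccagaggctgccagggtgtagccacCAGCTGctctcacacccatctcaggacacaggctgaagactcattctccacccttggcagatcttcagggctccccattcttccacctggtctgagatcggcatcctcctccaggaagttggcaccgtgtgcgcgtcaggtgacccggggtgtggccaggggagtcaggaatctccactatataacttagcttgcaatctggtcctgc
Muc2, chr7:141690090-141690339: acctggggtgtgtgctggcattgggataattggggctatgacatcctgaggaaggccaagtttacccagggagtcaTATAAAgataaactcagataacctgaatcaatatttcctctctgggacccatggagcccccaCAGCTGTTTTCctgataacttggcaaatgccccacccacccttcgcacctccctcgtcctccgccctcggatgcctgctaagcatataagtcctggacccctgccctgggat
Klk1, chr7:44225110-44225359: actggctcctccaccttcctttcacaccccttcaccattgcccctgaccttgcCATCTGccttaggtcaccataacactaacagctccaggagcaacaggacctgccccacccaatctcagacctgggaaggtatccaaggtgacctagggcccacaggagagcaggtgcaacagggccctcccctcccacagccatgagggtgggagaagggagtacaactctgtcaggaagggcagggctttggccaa

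Muc2 and Fcgbp each held 1 CAGCTG, at 112 to 107 and at 208 to 203 bases before the start, a motif found in 13% of the 32851 windows of this length in the promoter table. Klk1 held 1 CAGATG on the other strand at 197 to 192, which 14.4% of windows hold. The Agr2 window held none of the E-boxes, and had a forkhead match at 87 to 81 and a Cdx match at 48 to 42, both on the other strand, which 17.8% and 9.81% of windows hold. Muc2 also had a forkhead match at 108 to 102, which overlaps its E-box by a pair of bases, and TATAAA at 174 to 169, which 7.59% of windows hold. The E-box form CATATG, the unfolded protein response core and the stress element, held by 3.46%, 1.65% and 0.113% of windows, matched in none of the 4. These are letter matches only, and no binding was measured.

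The mucus gel is built on Muc2, the main gel-forming mucin of the intestine. Its intensity was 15797, 18527 and 17071 in the vehicle arrays and 18493, 21808 and 23440 in the DBZ arrays, here and below in the order of replicates 1, 2 and 3. The groups touched, with DBZ replicate 1 just below vehicle replicate 2. The means were 17132 ± 1366 and 21247 ± 2520 (SD, n = 3), a log2 difference of 0.31 ± 0.11 (SE; limma, adjusted p = 0.15) with a 95% interval of 0.04 to 0.57. Muc2 was thus bright in the sorted cells of both groups.

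Fcgbp encodes a large secreted protein that is bound to Muc2 in the mucus. It stood at 11703, 12169 and 12100 in the vehicle arrays and at 16379, 18865 and 19778 in the DBZ arrays. The vehicle arrays lay close together, and the lowest DBZ array was clear of them. Fcgbp rose from 11991 ± 251 to 18341 ± 1759 (SD, n = 3), a log2 difference of 0.61 ± 0.08 (SE; limma, adjusted p = 0.027). Among the mucus gel genes it was the member that passed the test.

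Clca1, a secreted metalloprotease that processes Muc2, was at 12219, 14835 and 14219 in vehicle and at 15877, 18321 and 20794 in DBZ arrays. The groups did not overlap, but their spreads were wide beside the gap. The difference was 0.41 ± 0.12 (SE; limma, adjusted p = 0.10), with an interval of 0.11 to 0.71. A dimmer probe set of Clca1 averaged 242 in vehicle and 399 in DBZ arrays, where it read 223, 394 and 581, and overlapped between the groups.

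Zg16 encodes a lectin of the mucus that binds Gram-positive bacteria. Its values were 25273, 27330 and 26273 in vehicle and 26101, 27253 and 26649 in DBZ arrays, so the groups lay on top of each other. The difference was 0.02 ± 0.06 (SE; limma, adjusted p = 0.85), with an interval of -0.12 to 0.16, and it turned to -0.042 with quantile normalization and to -0.0071 without vehicle replicate 1. The other probe sets of Zg16 had differences of 0.01 and 0.06 in a fit of all single-symbol probe sets. On vehicle replicate 2 Zg16 was the brightest probe set of the array, and in vehicle arrays it averaged 95% of the array maximum. From its vehicle level, the maxima of the DBZ arrays left room for a log2 difference of 0.18.

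Among the small secreted proteins, Tff3, a trefoil peptide that aids epithelial repair, was at 22872, 23875 and 22298 in vehicle and at 26964, 29871 and 29679 in DBZ arrays. The groups did not overlap. The difference of 0.32 ± 0.07 (SE) just missed the threshold (limma, adjusted p = 0.0505), with an interval of 0.16 to 0.49. Tff3 was the brightest probe set on DBZ replicates 2 and 3, so its own value set the maximum of those arrays.

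Spink4, a Kazal-type protease inhibitor secreted by goblet cells, was at 13878, 12273 and 12653 in vehicle and at 16167, 21986 and 23402 in DBZ arrays. Every DBZ array was higher than every vehicle array, with DBZ replicate 1 well below the other DBZ arrays. The means were 12935 ± 839 and 20518 ± 3835 (SD, n = 3), a difference of 0.65 ± 0.15 (SE; limma, adjusted p = 0.060). Without DBZ replicate 1 the difference was 0.81 and Spink4 passed (limma, adjusted p = 0.010).

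Retnlb encodes resistin-like molecule beta, a secreted protein with antibacterial activity. It was the most variable member, at 157, 49.2 and 279 in vehicle and at 210, 107 and 2190 in DBZ arrays. DBZ replicate 3 stood apart, while the other DBZ arrays lay within the vehicle range. The difference of 1.40 ± 1.14 (SE; limma, adjusted p = 0.49) had an interval of -1.36 to 4.17 and fell to 0.16 without DBZ replicate 3. On DBZ replicate 3 the family member Retnla also had its highest value, 391, against 105 to 177 on the other 5 arrays.

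Agr2, a protein disulfide isomerase of the endoplasmic reticulum needed for the production of Muc2, was at 6696, 7291 and 6365 in vehicle and at 14465, 20343 and 21868 in DBZ arrays. The lowest DBZ value was far above the highest vehicle value. Agr2 rose from 6784 ± 470 to 18892 ± 3909 (SD, n = 3), a log2 difference of 1.46 ± 0.16 (SE; limma, adjusted p = 0.020), or 2.74-fold on the scale of intensity + 16. Its dimmer probe set read 998, 884 and 919 in vehicle and 1454, 2242 and 3151 in DBZ arrays, also without overlap. In the fit of all single-symbol probe sets, which called 2.87% of them, the dimmer probe set had a difference of 1.21 ± 0.27 and did not pass (SE; limma, adjusted p = 0.067).

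Ern2 encodes IRE1 beta, the sensor of unfolded protein found in mucus-producing epithelia. It was at 395, 457 and 367 in vehicle and at 839, 1314 and 1445 in DBZ arrays, again with separate groups. Ern2 rose from 406 ± 46.1 to 1199 ± 319 (SD, n = 3), by 1.49 ± 0.21 (SE; limma, adjusted p = 0.027) or 2.81-fold on the scale of intensity + 16. Of all genes, 0.676% had a larger positive difference than Ern2 and 0.72% a larger one than Agr2.

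Klk1, tissue kallikrein, a secreted serine protease that releases kinins, was at 3877, 6048 and 4846 in vehicle and at 4580, 7419 and 7712 in DBZ arrays. The groups overlapped, since DBZ replicate 1 lay between the vehicle arrays. The difference was 0.40 ± 0.25 (SE; limma, adjusted p = 0.36) with an interval of -0.20 to 1.00. Of the other 3 probe sets of Klk1, the brightest had a difference of 0.41 and the dimmer pair 0.13 and -0.10. The mouse genome holds many close relatives of Klk1, whose transcripts these probe sets may share, and how far they do was not tested. All 8 measured Klk1b genes were dim, with vehicle means of 13.3 to 73.6, and none of them passed (limma).

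**Figure D2:**
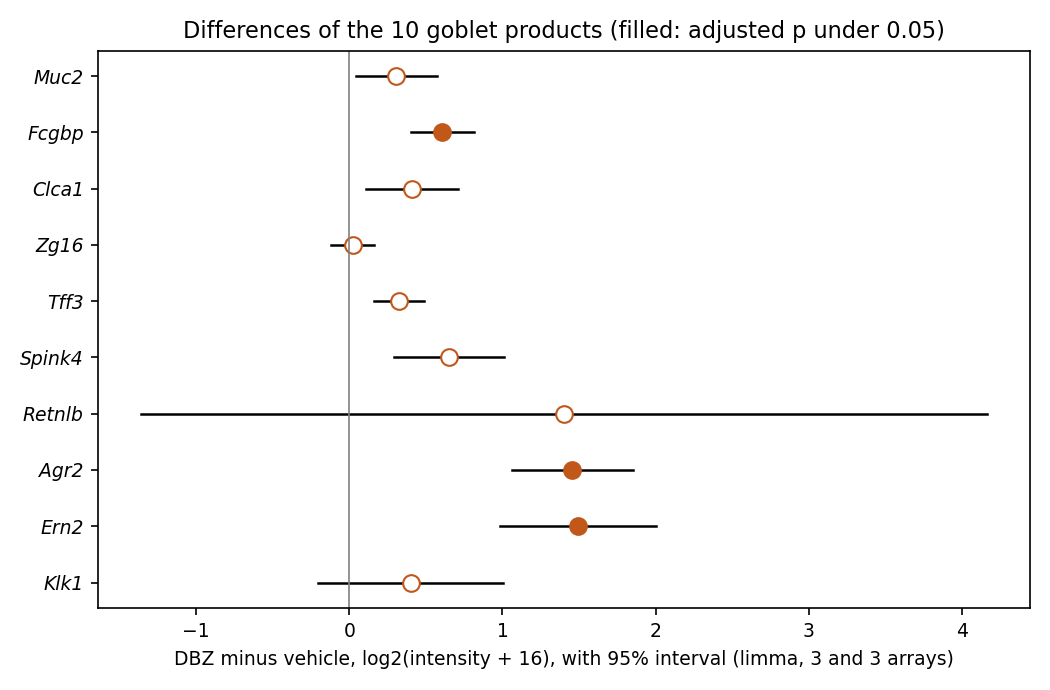
Log2 difference of each goblet product between DBZ and vehicle arrays on the log2(intensity + 16) scale, with the 95% interval of the limma fit (3 and 3 arrays). Filled points passed the test: Fcgbp at 0.61, Agr2 at 1.46 and Ern2 at 1.49. The interval of Retnlb, from -1.36 to 4.17, is the widest of the 10.

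The brightest members, Zg16 and Tff3, lay near the top of the scale. Array maxima lay between 27330 and 29871, and 6 of the 10 genes, Muc2, Tff3, Clca1, Fcgbp, Zg16 and Spink4, had vehicle means above 10000. In vehicle arrays Zg16 averaged 95% and Tff3 83.1% of the array maximum, against 61.9% for Muc2, 49.7% for Clca1, 46.7% for Spink4 and 43.3% for Fcgbp. Agr2 was at 24.5%, Klk1 at 17.8%, Ern2 at 1.47% and Retnlb at 0.583%. Over the 10 genes the log2 vehicle mean and the log2 difference correlated at r = -0.80 (Spearman's rho -0.81), as a description of 10 points that share the same 6 arrays. The difference subtracts the same vehicle mean, so r can lean negative by construction. The dimmest point, Retnlb, fell from 1.40 to 0.16 without DBZ replicate 3. Of all 106 genes with a vehicle mean above 10000, the 6 members included, 3 were called higher (2.83%), Fcgbp among them. Of the 106, 0 had a positive difference of 1 or more, and the largest positive one was 0.70. Ang4, Defa39 and Hadh had differences of -2.70, -1.10 and -1.06, and did not pass (limma). Among the 2085 genes between 1000 and 10000, the bin of Agr2 and Klk1, 4.32% were called higher. Of these genes, 2.11% had a positive difference of 1 or more. From the vehicle level to the maxima of the DBZ arrays, the room for a log2 difference was 0.80 for Muc2 and 1.31 for Fcgbp. Clca1 and Spink4 lay between them. No value can exceed the maximum of its array, so this room could not be less than the difference measured. Whether the top of the scale limited the bright members was not tested.

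**Figure D3:**
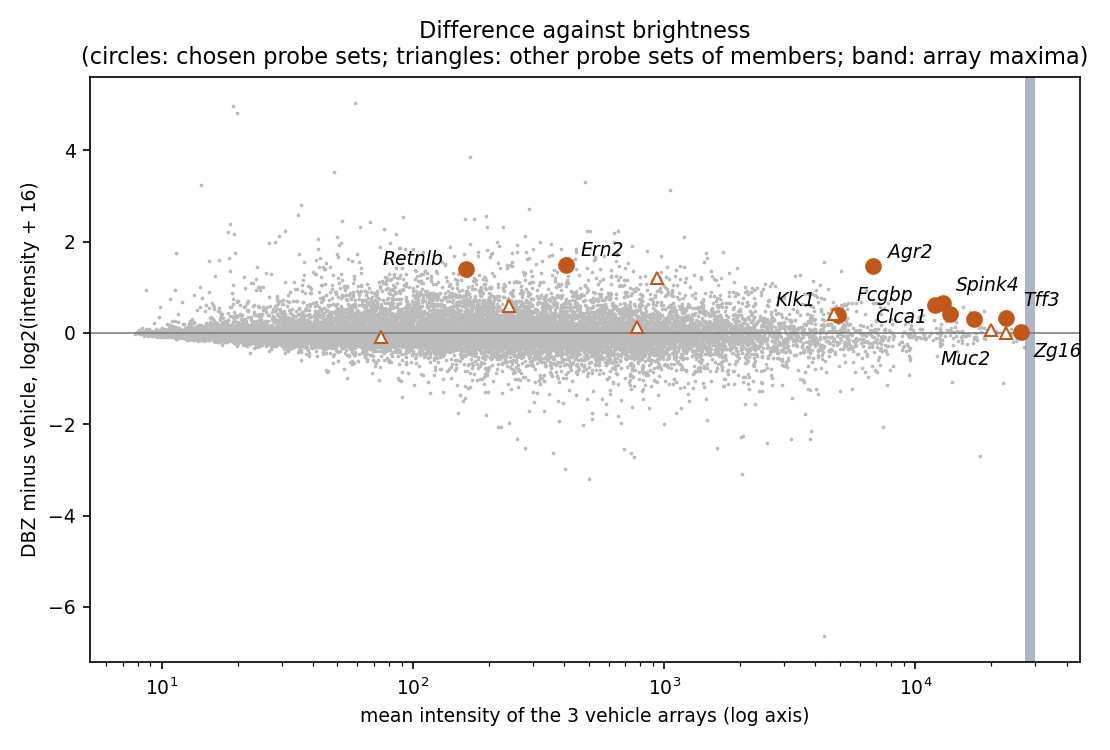
Log2 difference (DBZ minus vehicle, log2(intensity + 16)) of every gene against its mean intensity in the 3 vehicle arrays (log axis). Orange circles are the chosen probe sets of the 10 goblet products, open triangles their other probe sets, and the vertical band spans the 6 array maxima, 27330 to 29871. Agr2 and Ern2 lie high at lower intensity, while Zg16 and Tff3 lie beside the band.

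The members varied together within the DBZ group. DBZ replicate 1 was the lowest DBZ array for 9 of the 10 genes, Retnlb being the exception. The same held for 33.2% of all genes and for 55.3% of the 695 genes called higher. Against the vehicle mean, Agr2 was up by 1.09, 1.58 and 1.69 on the log2 scale in DBZ replicates 1, 2 and 3, Ern2 by 1.02, 1.66 and 1.80, and Fcgbp by 0.45, 0.65 and 0.72. The profile of each gene over the 6 arrays correlated with the mean profile of the other 9 at 0.84 to 0.98, save for Zg16 at 0.47 and Retnlb at 0.45, again as a description of 6 arrays in 2 groups.

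Which members passed changed when an array was left out. Each such fit also had fewer arrays, and the part of this was not tested. Without vehicle replicate 1, 2 or 3 none of the 10 passed (limma, 6, 7 and 6 at an unadjusted p under 0.05), and the number of all genes called fell from 972 to 49, 19 and 38. Without DBZ replicate 1 Tff3 and Spink4 passed beside Agr2, Ern2 and Fcgbp, with 2032 genes called in all. Without DBZ replicate 2 only Agr2 passed, with 217 genes called, and without DBZ replicate 3 the same 3 as with all arrays passed, with 352 called. Adjusted p for Agr2 ran from 0.0038 to 0.083 over these 6 fits (limma), while its difference stayed between 1.34 and 1.64. The difference of Ern2 stayed between 1.34 and 1.73 and that of Fcgbp between 0.55 and 0.69.

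**Figure D4:**
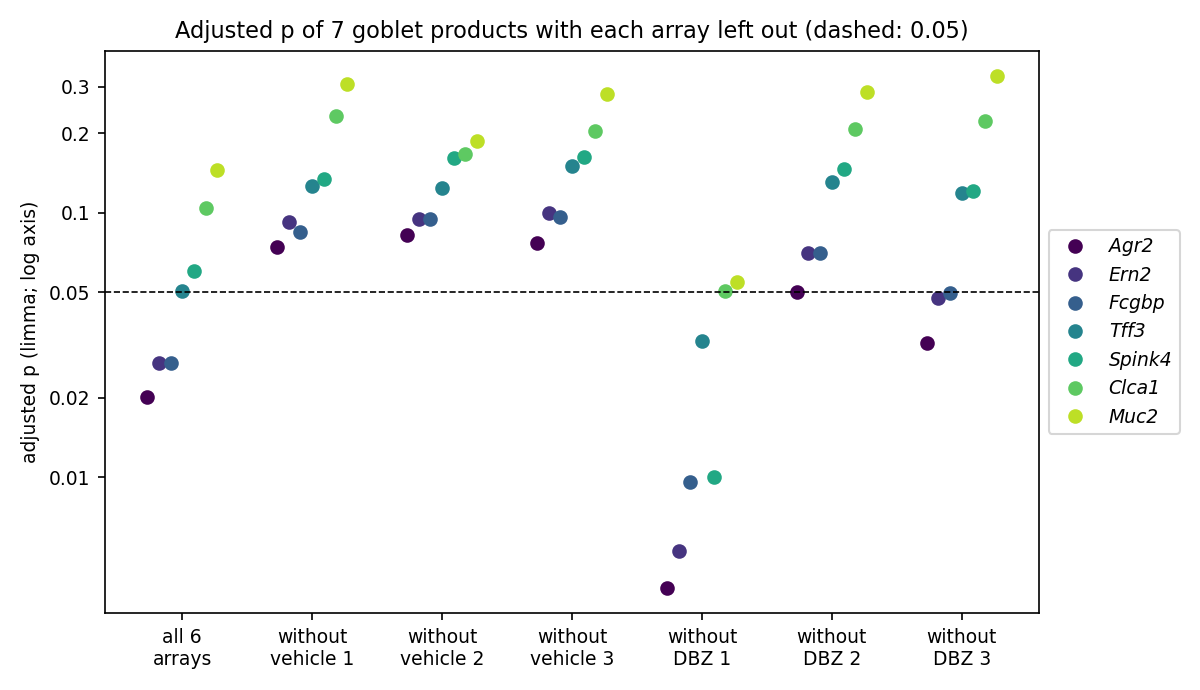
Adjusted p (limma, log axis) of 7 goblet products with all 6 arrays and with each array left out in turn, the dashed line marking 0.05. Agr2, Ern2 and Fcgbp lie above the line in each fit that lacks a vehicle array, and all 7 genes have their lowest values without DBZ replicate 1.

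Beside the products, the transcription factors that direct goblet cell formation were examined. Of 9 listed regulators 7 rose and 0 fell, with a median difference of 1.66 against -0.02 for all genes. The test called 3.82% of all genes higher. This list and those below were chosen with earlier results of these data known, so the counts are descriptions. Atoh1, which commits crypt cells to secretory fates, was at 614, 870 and 748 in vehicle and at 2434, 2740 and 3257 in DBZ arrays. Spdef, which drives goblet cell maturation, was at 255, 267 and 259 in vehicle and at 636, 1008 and 1252 in DBZ arrays. Both were thus lowest in DBZ replicate 1 among the DBZ arrays, as were most of the products. The repressor gene Gfi1, a target of Atoh1, rose by 2.17 ± 0.13, Atoh1 by 1.90 ± 0.16, Foxa3 by 1.65 ± 0.20 and Spdef by 1.78 ± 0.23 (SE; limma, adjusted p = 0.0041, 0.0097, 0.023 and 0.025). Without vehicle replicate 1, 2 or 3 the number that passed was 2, 2 and 1, and without DBZ replicate 2 it was 2.

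Among 14 other goblet products and markers 6 rose and 0 fell, with a median of 1.23, where 3.82% of all genes were called higher. The chemokine gene Ccl9 was at 487, 527 and 437 in vehicle and at 4152, 5220 and 5478 in DBZ arrays, a difference of 3.31 ± 0.13 (SE; limma, adjusted p = 0.0012). Rep15, an effector of the vesicle protein Rab15, rose by 1.42 ± 0.20 and the transporter gene Slc12a8 by 1.98 ± 0.29 (SE; limma, adjusted p = 0.027 and 0.028). The number that passed was 1 without any single vehicle array or without DBZ replicate 2, and 11 without DBZ replicate 1.

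Neither the other mucins nor the genes of mucus release held a member that passed with all arrays. Of 9 measured mucin genes besides Muc2, 0 passed (limma, 3 at an unadjusted p under 0.05), with a median of 0.01. Muc13, a membrane-bound mucin, had a mean of 10364 ± 1218 with vehicle and 12888 ± 497 with DBZ (SD, n = 3; limma, adjusted p = 0.11). Without DBZ replicate 2 the count was 1, which was Muc16, another membrane-bound mucin, dim at 18.9 ± 0.985 with vehicle and 37.0 ± 12.9 with DBZ (SD, n = 3). Of 8 genes of mucus release and processing 0 passed (limma, 1 at an unadjusted p under 0.05). The median was -0.16, and 7 of the 8 had a negative difference, while 45.4% of all genes had a positive one. Nlrp6, an inflammasome sensor linked to goblet cell secretion, was at 1210, 1031 and 1090 in vehicle and at 630, 360 and 135 in DBZ arrays, without overlap (limma, adjusted p = 0.091). Without DBZ replicate 1 the count was 1, and Nlrp6 was the gene called lower.

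**Figure D5:**
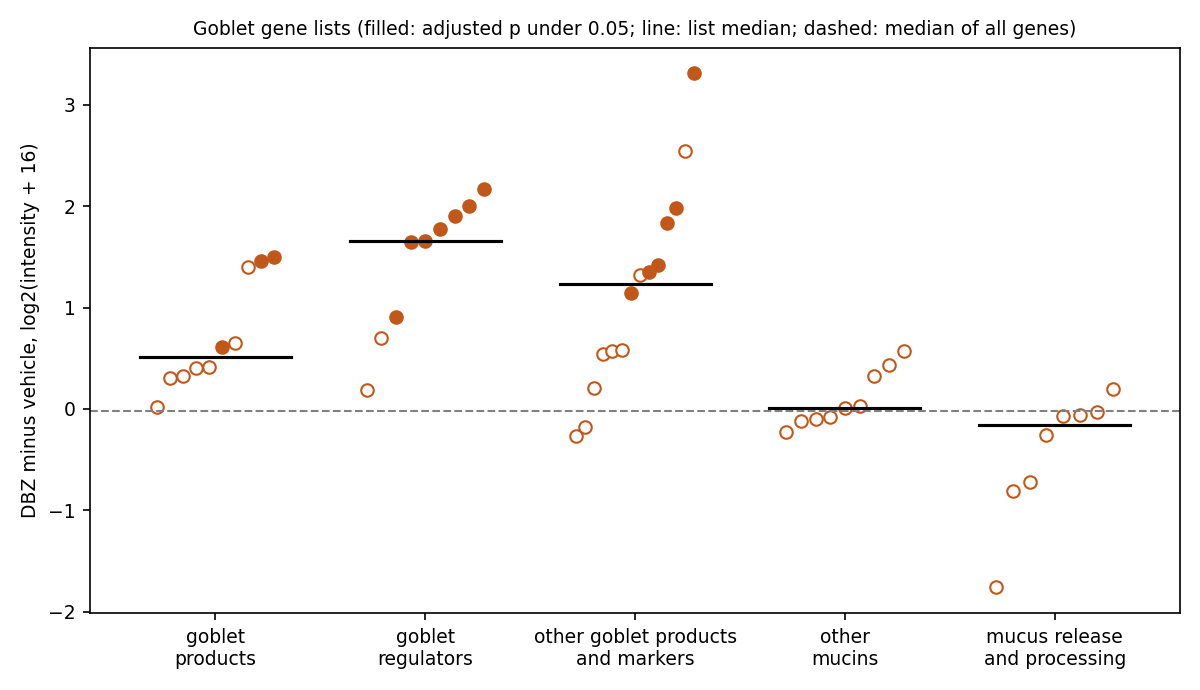
Log2 differences (DBZ minus vehicle, log2(intensity + 16)) of the 10 goblet products and of 4 other gene lists, ordered by value within each list. Genes of the last 2 lists need not be particular to goblet cells. Filled points passed the test, lines are list medians and the dashed line is the median of all genes, -0.02. The medians are 0.51 for the products, 1.66 for the regulators, 1.23 for other products and markers, 0.01 for other mucins and -0.16 for mucus release and processing.

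Paralogs of the members were read in the same arrays. Of 20 measured, 1 passed (limma): Retn, which encodes the adipocyte hormone resistin, rose by 2.32 ± 0.41 (SE; limma, adjusted p = 0.038). Ern1, the broadly expressed counterpart of Ern2, had a mean of 592 ± 69.2 with vehicle and 693 ± 127 with DBZ (SD, n = 3; limma, adjusted p = 0.43). Agr3, the nearest relative of Agr2, was dim at 51.7, 64.2 and 49.2 with vehicle and 56.9, 66.8 and 33.7 with DBZ (limma, adjusted p = 0.84). Clca4a read 8436, 15291 and 14008 in DBZ and 6842 to 8453 in vehicle arrays, and overlapped. The difference between a member and its paralog was not tested.

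The genes outside these lists with the profile most like the mean of the 10 products over the 6 arrays were Ufc1, P4hb, Nans, Inpp5f, Plcb4, Tspyl4, Slc7a6 and Vcp, at Pearson's r of 0.9975 to 0.9996. They were taken from 8820 genes brighter than the median gene, of which 1109 had r above 0.9, so a high value is common over 6 arrays in 2 groups. P4hb, which encodes a protein disulfide isomerase, was at 6882, 8165 and 7529 in vehicle and at 9261, 11386 and 12702 in DBZ arrays. Nans, which encodes sialic acid synthase, was at 878, 1154 and 993 in vehicle and at 1406, 2242 and 2637 in DBZ arrays. None of the 8 passed the test (limma, adjusted p = 0.052 to 0.083).

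Markers of several other cell types differed between the groups as well. Each array measured all sorted cells together, so more RNA per cell and a larger share of goblet cells cannot be told apart. All 12 crypt base stem cell markers were brighter than the median probe set in vehicle arrays. So were all 14 fibroblast and smooth muscle genes and 11 of 12 enterocyte genes. Of the 12 stem cell markers 1 rose and 3 fell. The summed intensities of these stem cell markers were 10174 to 12774 under vehicle and 8336 to 9379 under DBZ, without overlap. The fall of this sum lay in Olfm4, at 3627, 4234 and 5177 in vehicle and 35.9, 18.6 and 29.9 in DBZ arrays. Of the 12 differences 6 were positive, with a median of -0.04, and that of Lgr5 was -0.08 (limma, adjusted p = 0.72). The sums of 12 enterocyte genes nearly touched, at 99898 to 102855 under vehicle and 77931 to 99679 under DBZ. Of these 12 genes 0 passed (limma, 5 at an unadjusted p under 0.05), 1 had a positive difference and the median was -0.33. Of 14 fibroblast and smooth muscle genes 9 rose, with summed intensities from 22313 to 31998 under vehicle and from 48090 to 55616 under DBZ. The corresponding sums were 1798 to 3772 and 6025 to 14798 for 7 adipocyte genes, of which 2 rose, 244 to 339 and 793 to 5537 for 7 neutrophil genes, of which 2 rose, and 1436 to 2012 and 3098 to 4873 for 6 mesothelial genes, of which 1 rose. For 8 endothelial genes, of which 2 rose, the sums were 625 to 718 and 857 to 996. Medians were 1.00 for fibroblast and smooth muscle, 1.75 for adipocyte, 0.10 for neutrophil, 0.96 for mesothelial and 0.44 for endothelial genes. The goblet products had 0.51, and the test called 3.82% of all genes higher. Epithelium genes summed to 96567 to 108361 and 97926 to 104404, with 0 of 11 past the test (limma, 3 at an unadjusted p under 0.05). Leukocyte genes overlapped too, with sums of 15846 to 19287 and 15661 to 19587 and 0 of 11 past the test (limma, 1 at an unadjusted p under 0.05). Of other secretory cells, 3 of 9 Paneth and 2 of 16 enteroendocrine markers rose, with sums of 72280 to 84995 and 48814 to 90102 for the former and 7221 to 8670 and 10318 to 23348 for the latter. The other Paneth markers did not pass, but Ang4, Mptx1 and Lyz1 lay wholly below the vehicle arrays, with differences of -2.70, -2.25 and -0.30 (limma, adjusted p = 0.068, 0.065 and 0.26). Over all 9 Paneth markers the median was -0.02, and 4 differences were positive. Of the 16 enteroendocrine differences 15 were positive, with a median of 1.18. Tuft markers, of which 1 of 10 rose, summed to 785 to 932 and 1071 to 1895. Their median was 0.39, and 8 of the 10 differences were positive. No marker was listed at 0. The part of these cells in the goblet values was not tested.

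A control of RNA quality differed between the groups as well. For the actin control probe sets, 3′ over 5′ signal was 2.22, 1.61 and 1.69 in vehicle and 1.53, 1.51 and 1.57 in DBZ arrays, without overlap, and for the Gapdh control it was 1.07 to 1.42 and 1.05 to 1.09. Its part in the goblet values was not tested. Array medians were alike, at 44.9 to 46.3 intensity units.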

How the data were processed

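Total RNA of sorted cells was amplified and biotin-labelled for Affymetrix arrays, per the labels' protocols. What the authors deposited is a linear intensity for each probe set. How background was corrected and arrays were normalized, and by which software, is not given in the sources used here. No counts underlie them, and the number of arrays, 3 per group, limits the precision. Of 45101 probe sets, 34945 outside the 64 controls had 1 symbol in the platform's annotation, 932 had several and 9160 none. Those with several or none were left out. Entrez identifiers of 34741 matched the RefSeq gene table, with 0 symbols changed.

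Array medians differed by 0.034 on the log2(intensity + 16) scale, under the limit of 0.1, so values were used as deposited. The groups were compared with limma 3.58.1 under R 4.3.3 (lmFit and eBayes at their defaults, two-sided), adjusted by Benjamini-Hochberg over 18193 genes. SE is moderated and intervals cover 95%. An exact permutation test of 3 against 3 arrays cannot go below p = 0.1. In a simulation that drew 18193 genes from their real means and spreads, the fit recovered 80.0% of genes changed by a log2 difference of 1. Of its calls 4.86% were false. Each gene was drawn independently, without the shifts that genes share on a real array, so recovery in the real arrays may be lower.

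The members, gene lists and tests were chosen with earlier results of these data known. Named are all members, Atoh1 and Spdef, up to 3 genes per other list by smallest p (1 where none passed), paralogs past the threshold and the 8 genes of most similar profile. Ern1, Agr3, Clca4a, Retnla, Muc16 and the Klk1b range were added after their values were seen. Alternatives were other normalizations, pseudocounts, filters, probe set choices, variance models, array weights, thresholds, the replicate block and leaving out each array.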

Additional observations from a re-analysis of the deposited data

How the results depend on the processing

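Of 200 comparisons of a member's difference with its value under another setting, 170 kept direction and side of the threshold, 17 lost the call, 11 gained it and 2 turned sign. Both turns were of Zg16, to -0.042 with quantile normalization and -0.0071 without vehicle replicate 1, neither past the test, and with an array left out Zg16 ran from -0.0071 to 0.049. The number of members past the threshold was 6 with array weights, 5 at a threshold of 0.1, 0 at a threshold of 0.01 and 0 with ordinary t statistics (limma fit without moderation, 6 at an unadjusted p under 0.05), and 0 to 5 with an array left out. It was 3 or 4 under the other settings. The number of all genes past the threshold was 440 with a pseudocount of 64, 2690 with array weights, 2575 at a threshold of 0.1, 31 at 0.01 and 0 with ordinary t statistics (3731 at an unadjusted p under 0.05), and 19 to 2032 with an array left out. With an array left out, the counts past the threshold were 1 to 7 for goblet regulators, 1 to 11 for other goblet products and markers, 0 to 1 for other mucins and 0 to 1 for mucus release and processing. The cause of these shifts was not tested. Each leave-out fit also had fewer arrays, and the part of this was not tested.

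Deviations from the group mean of arrays with the same replicate number correlated at -0.009, 0.25 and 0.20. Those of arrays with unlike numbers correlated at -0.29 to 0.014. Replicates 2 and 3 were thus more alike within their number, and replicate 1 was not, so these values do not settle whether the arrays were paired. The main fit did not take the numbers as pairs. With the replicate block 3 members and 889 genes passed. The small number of arrays limits the precision for all members.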
